A study of Homo sapiens with 204 samples.

Results

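The 9 genes described here, ALDH3A1, ALDH1A1, AKR1C1, AKR1B10, NQO1, TXNRD1, SLC7A11, GCLM and ABCC2, belong to the NRF2 detoxification programme of A549, an established human lung adenocarcinoma cell line. They were taken by name, as the rows of their Ensembl identifiers in the 2 count tables, and are 9 of 41379 genes in RNA-seq and 9 of 19217 genes in Ribo-seq. All 9 passed the filter on low counts in both assays, and the smallest count of any of them in a library was 1337 reads. In the knockdown libraries 1 of 75 ribosomal proteins, 44 of the large and 31 of the small ribosomal subunit, had been depleted in A549 by transfection of siRNA at 40 nM, and cells were harvested after 24 h. Control libraries came from A549 given a non-targeting siRNA at the same dose and for the same time. Each lysate gave an RNA-seq library, counted over exons, and a Ribo-seq library of ribosome-protected fragments, counted over coding sequences. There were 91 knockdown and 11 control libraries per assay, and 16 targets had 2 libraries while 59 had 1 and so no replicate check. The siRNA sequences are not analysed here. Nothing in the labels says whether replicate libraries came from separate cultures, and p-values then describe the variation of these libraries, which may be technical.

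NRF2, the product of NFE2L2, is a transcription factor that pairs with small MAF proteins and binds the antioxidant response element near genes for glutathione synthesis, thioredoxin reduction, quinone and aldehyde detoxification and drug export. In unstressed cells KEAP1 presents NRF2 to a CUL3 ubiquitin ligase, which keeps it scarce, and oxidants or electrophiles release it. A549 cells carry a loss-of-function mutation in KEAP1, so that NRF2 is active without added stress and several of these enzymes are abundant at baseline. A549 cells also have wild-type p53, which ribosomal proteins can activate when they are not built into ribosomes.

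The promoters of the genes were searched for the core of the antioxidant response element, which NRF2 binds. RefSeq promoter sequences of GRCh38.p14, from 250 bases before to 50 bases after a transcription start, were matched by symbol for 6 of the 9 genes (7 promoters, since TXNRD1 has 2) and searched on both strands for TGACNNNGC. The motif was found in both TXNRD1 promoters and in the GCLM promoter, that is in 3 of 7, against 4687 of 35116 RefSeq promoters (13.35%) of the same length. By gene, it was found in 2 of 6, against 4384 of 27305 RefSeq genes (16.06%). It was not found in the windows of ALDH1A1, AKR1C1, NQO1 and ABCC2. In the 33 promoters of 24 other NRF2 target genes it was found in 10. The stretches below run 5′ to 3′ on the strand of the gene from 150 bases before to 10 bases after the start, and capitals mark the motif.
TXNRD1 promoter 1, chr12:104215629-104215788, plus strand: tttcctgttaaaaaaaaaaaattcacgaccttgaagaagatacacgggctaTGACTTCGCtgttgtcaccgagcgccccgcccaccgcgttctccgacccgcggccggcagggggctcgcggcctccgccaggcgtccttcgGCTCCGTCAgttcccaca
TXNRD1 promoter 2, chr12:104286882-104287041, plus strand: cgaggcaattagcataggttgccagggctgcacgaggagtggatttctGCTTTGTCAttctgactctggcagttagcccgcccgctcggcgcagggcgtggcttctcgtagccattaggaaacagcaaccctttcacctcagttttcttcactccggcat
GCLM promoter, chr1:93909421-93909580, minus strand: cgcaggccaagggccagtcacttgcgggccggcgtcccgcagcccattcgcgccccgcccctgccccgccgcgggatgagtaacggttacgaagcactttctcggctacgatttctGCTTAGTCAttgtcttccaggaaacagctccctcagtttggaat

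In the first TXNRD1 promoter the motif begins 99 bases before the start on the strand of the gene, and a second copy lies 8 bases before the start on the opposite strand. The copies in the second TXNRD1 promoter and in the GCLM promoter, at 102 and 34 bases before the start, are both on the opposite strand. A match of these letters is a description and does not show that NRF2 was bound there.

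Library totals ran from 18.8 M to 63.6 M counts in RNA-seq and from 7.77 M to 57.2 M in Ribo-seq, and the targeted mRNA was below every control in all 91 knockdown libraries. The libraries fall into 4 sets, told apart by the number in the title and by the position of the columns in the count tables: titles 1 to 11 (18 knockdown and 2 control libraries), titles 13 to 20 (12 and 2), the second run of columns (45 and 5) and the third run of columns (16 and 2). The labels do not say what these sets are, and levels of the 9 genes differed between the controls of different sets, so values within sets are also given. The RPS15 libraries carry the number 8 in their RNA-seq titles and 18 in their Ribo-seq titles and in the columns of both tables, and they were taken as part of titles 13 to 20. Against the controls of titles 1 to 11 their RNA-seq log2 ratios would be 1.07 for AKR1C1, 0.75 for AKR1B10 and 0.51 for NQO1. One RNA-seq control of titles 13 to 20, the second library of control 20, stood apart from the other numbered controls. For each of the 9 genes it was the highest or the lowest of them. Its TXNRD1 level was 692.9 CPM and its ABCC2 level 246.5 CPM, where the other 5 numbered controls had 1248 to 1382 CPM and 339.9 to 377.2 CPM. Epithelial keratins and adhesion genes (5 of 5 markers detected) summed to 1250 to 6587 CPM in RNA-seq of knockdowns and 1663 to 5490 CPM in controls. Surfactant genes of alveolar type II cells, which the A549 line is often taken to stand for, summed to at most 0.599 CPM in knockdowns and 0.360 CPM in controls, with every one of the 3 in the table at a median under 1 CPM. Fibroblast genes summed to 4.21 to 52.3 CPM in knockdowns and 10.4 to 25.9 CPM in controls, and blood cell genes to at most 4.81 and 4.44 CPM. The highest blood cell sum in Ribo-seq was 230.6 CPM in a knockdown library and 7.56 CPM in a control library, and its part in the results was not tested.

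Averaged over all 91 knockdown libraries, the aldehyde dehydrogenases ALDH3A1 and ALDH1A1 were higher than in the 11 controls in both assays, and GCLM was lower in both. The other 6 genes passed the test in neither assay. In bulk libraries less RNA per cell and fewer cells with a high level cannot be told apart. A gene was called when edgeR's quasi-likelihood test, with a term for numbered and unnumbered titles, gave a Benjamini-Hochberg adjusted p under 0.05 over all genes tested. By that rule 2 of 9 genes were higher and 1 was lower in each assay. Of all genes, 13.4% were called higher and 17.2% lower in RNA-seq, and 13.2% higher and 13.5% lower in Ribo-seq. The median log2 fold change of the 9 genes was -0.01 in both assays, and over all genes tested it was -0.03 in RNA-seq and -0.004 in Ribo-seq. The title term did not match sets: third-run controls counted as numbered, and third-run knockdown libraries as unnumbered, apart from the second of RPS16. In RNA-seq ALDH3A1 was at 412.5 and 417.6 CPM in third-run controls and at 709.6 to 1328 CPM in the other numbered controls. GCLM was at 184.6 and 201.1 CPM and at 67.2 to 124.8 CPM.

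ALDH3A1 (ENSG00000108602, chr17:19737984-19748298, GRCh38) codes for an aldehyde dehydrogenase that oxidises aromatic aldehydes and those from lipid peroxidation. Its RNA-seq level ran from 278.7 over a median of 776.3 to 2322 CPM in knockdowns, and from 382.9 over a median of 430.0 to 1328 CPM in controls. The ranges overlap, and the controls of titles 13 to 20, at 939.0 and 1328 CPM, exceeded those of every other set. The log2 fold change was 0.72 ± 0.16 (SE), with an adjusted p of 0.00041 in edgeR's quasi-likelihood test. Ribo-seq levels ran from 592.3 over 1677 to 4897 CPM in knockdowns and from 813.5 over 897.6 to 1684 CPM in controls, with a log2 fold change of 0.82 ± 0.16 and an adjusted p of 2.27e-05 (edgeR).

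Within sets, ALDH3A1 in RNA-seq was above both controls in 16 of 18 knockdown libraries of titles 1 to 11 and in 4 of 12 of titles 13 to 20. The last count rests on the second library of control 20: 11 of 12 were above the first. It was above all 5 controls in 37 of 45 libraries of the second run, and above both controls in 15 of 16 of the third. In Ribo-seq the same counts were 16 of 18, 12 of 12, 39 of 45 and 15 of 16. The mean log2 difference from the controls of the same set was 0.57, 0.26, 0.68 and 0.74 in RNA-seq, in the order of the sets, and 0.57, 0.59, 0.69 and 0.83 in Ribo-seq. Against the first library of control 20 alone the 0.26 of titles 13 to 20 was 0.51. With numbered titles alone the RNA-seq difference was 0.66 ± 0.23 and its adjusted p 0.054 (edgeR), so the call was lost there.

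ALDH1A1 (ENSG00000165092, chr9:72900671-72953053, GRCh38) codes for the cytosolic retinaldehyde dehydrogenase. Knockdown libraries held 1767 to 4939 CPM in RNA-seq with a median of 3053 CPM, and controls 1983 to 3392 CPM with a median of 2451 CPM. The log2 fold change was 0.30 ± 0.08 with an adjusted p of 0.0045 (edgeR's quasi-likelihood test), and the ranges overlap for most libraries. In Ribo-seq the levels were 6371 to 22931 CPM with a median of 12363 CPM in knockdowns, and 6272 to 12582 CPM with a median of 11159 CPM in controls. The Ribo-seq log2 fold change was 0.24 ± 0.09 with an adjusted p of 0.025 (edgeR). That call was lost without any 1 of the controls NC9, NC11_1 and NC11_2, with adjusted p of 0.056, 0.070 and 0.074 (edgeR). The direction was the same in all 4 sets, with mean log2 differences of 0.36, 0.34, 0.28 and 0.28 in RNA-seq and 0.58, 0.36, 0.23 and 0.24 in Ribo-seq, in the order of the sets. Against the first library of control 20 alone the RNA-seq value of titles 13 to 20 was 0.06 instead of 0.34. In the second run alone the test did not call it, with an adjusted p of 0.13 in RNA-seq and 0.26 in Ribo-seq (edgeR), and with numbered titles alone the Ribo-seq value was not called (0.21).

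GCLM (ENSG00000023909, chr1:93885199-93909430, GRCh38) codes for the modifier subunit of glutamate-cysteine ligase, which makes the first step of glutathione synthesis more efficient. In RNA-seq it ran from 43.9 over 151.5 to 307.8 CPM in knockdowns and from 67.2 over 184.6 to 251.6 CPM in controls. Its log2 fold change was -0.44 ± 0.12, with an adjusted p of 0.0031 (edgeR's quasi-likelihood test). In Ribo-seq it ran from 111.5 over 356.7 to 689.9 CPM in knockdowns and from 285.7 over 471.1 to 574.9 CPM in controls, with a log2 fold change of -0.51 ± 0.12 and an adjusted p of 0.00035 (edgeR). GCLM was below both controls in 16 of 18, 1 of 12 and 13 of 16 RNA-seq libraries of titles 1 to 11, titles 13 to 20 and the third run, and below all 5 controls in 11 of 45 of the second run. The 1 of 12 rests on the second library of control 20, at 67.2 CPM, since all 12 were below the first, at 122.9 CPM. In Ribo-seq it was below all controls of its set in 15 of 18, 12 of 12, 14 of 16 and 17 of 45 libraries in the same order. The mean log2 difference within sets was -0.54, -0.07, -0.33 and -0.26 in RNA-seq and -0.50, -0.48, -0.42 and -0.28 in Ribo-seq, with the sets in the order titles 1 to 11, titles 13 to 20, the third run and the second run. The -0.07 of titles 13 to 20 was -0.50 against the first library of control 20 alone. The size depended on the term for sets. With 4 sets as the term it was -0.27 ± 0.11 in RNA-seq and -0.35 ± 0.11 in Ribo-seq, with adjusted p of 0.043 and 0.0077 (edgeR), and with no such term the call was lost in both assays (adjusted p of 0.36 and 0.15). In the second run alone it was -0.22 ± 0.16 and -0.26 ± 0.15, not called in either assay (adjusted p of 0.39 and 0.37, edgeR).

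**Figure D1:**
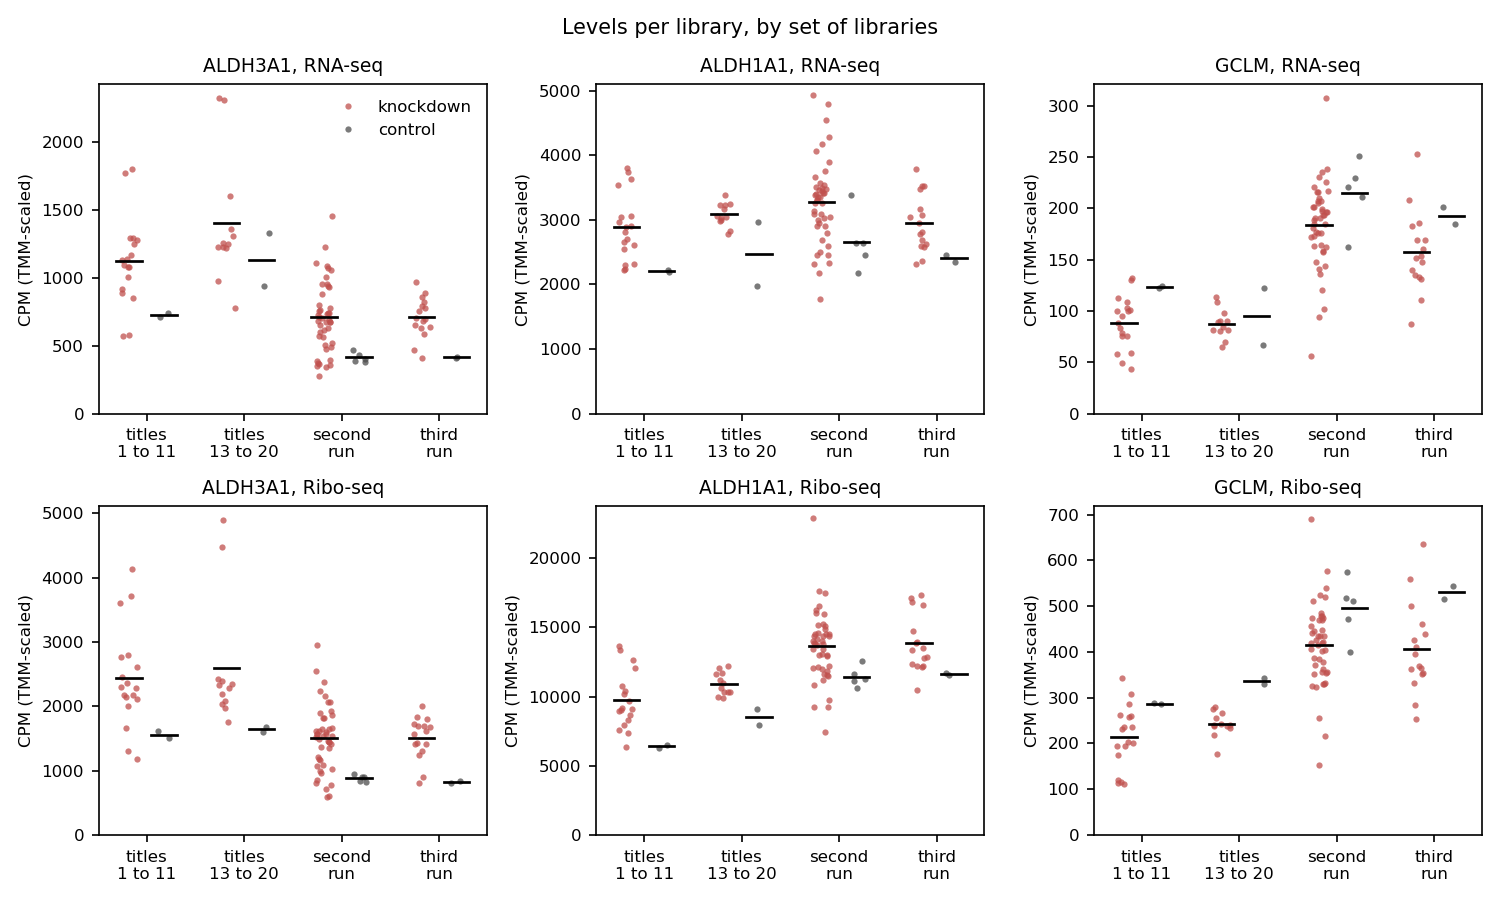
CPM (scaled by TMM, linear axis from 0) of ALDH3A1, ALDH1A1 and GCLM in every RNA-seq and Ribo-seq library, by set of libraries, with knockdowns left of their controls and bars at the group means. ALDH3A1 and ALDH1A1 means were above the control mean and GCLM means below it in each set and assay, and in RNA-seq of titles 13 to 20 the knockdown and control ranges of GCLM overlapped for 11 of 12 knockdown libraries, where 1 of the 2 controls lay at 67.2 CPM.

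The reductases and the quinone oxidoreductase were near their controls on average. AKR1C1 (ENSG00000187134, chr10:4963415-4983283), an aldo-keto reductase of steroids and lipid aldehydes, had a median of 155.4 CPM in RNA-seq of knockdowns (68.5 to 283.2) and 155.6 CPM in controls (110.4 to 216.6). AKR1B10 (ENSG00000198074, chr7:134527567-134541412), which reduces retinal and other aldehydes, had medians of 1783 CPM (825.2 to 3012) and 1722 CPM (1658 to 2862). NQO1 (ENSG00000181019, chr16:69709401-69726560), which reduces quinones by a pair of electrons and so avoids semiquinones, had medians of 1122 CPM (823.8 to 1472) and 1116 CPM (905.2 to 1529). Log2 fold changes were -0.01 ± 0.13 for AKR1C1, -0.06 ± 0.11 for AKR1B10 and 0.01 ± 0.06 for NQO1 in RNA-seq, and -0.01 ± 0.13, -0.14 ± 0.10 and 0.07 ± 0.05 in Ribo-seq. None of these 6 values was called by edgeR. With 4 sets as the term NQO1 in Ribo-seq was called higher (0.12, adjusted p of 0.049, edgeR). AKR1C1 shares long stretches with AKR1C2 and AKR1C3, and AKR1B10 with AKR1B15 and the pseudogene AKR1B10P1, so reads may have been split between copies. NQO1, SLC7A11 and TXNRD1 overlap annotated antisense RNAs, TXNRD1 also overlaps EID3 and a pseudogene, AKR1C1 overlaps an uncharacterised long non-coding RNA and ABCC2 a pseudogene. The sources used here give no strand setting for the counts.

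TXNRD1, SLC7A11 and ABCC2 were also not called on average. Their ranges are over 91 knockdown and 11 control libraries, and a range widens with the number of libraries. The SDs in RNA-seq were 340.1 and 285.0 CPM for TXNRD1, 177.8 and 171.4 CPM for SLC7A11 and 85.5 and 56.3 CPM for ABCC2, knockdowns first. TXNRD1 (ENSG00000198431, chr12:104215779-104350307) is the cytosolic thioredoxin reductase, a selenoprotein. Its RNA-seq level was 455.5 to 2036 CPM in knockdowns (median 1222) and 692.9 to 1695 CPM in controls (median 1382). SLC7A11 (ENSG00000151012, chr4:138164097-138242349), the cystine importer that feeds glutathione synthesis and also a target of ATF4, had 98.4 to 836.8 CPM (median 436.9) and 77.2 to 603.9 CPM (median 462.2). ABCC2 (ENSG00000023839, chr10:99782640-99852594), an exporter of glutathione and glucuronide conjugates, had 222.4 to 625.5 CPM (median 408.9) and 246.5 to 456.0 CPM (median 377.2). Their log2 fold changes were -0.18 ± 0.12, -0.13 ± 0.16 and 0.10 ± 0.10 in RNA-seq and -0.20 ± 0.12, -0.05 ± 0.13 and 0.04 ± 0.11 in Ribo-seq, in the order named. Without the second library of control 20 the RNA-seq values were -0.23, -0.22 and 0.07, again not called.

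Translation efficiency, the Ribo-seq change beyond the RNA-seq change, was called for 0 of 9 genes. Over all genes 0.457% were called higher and 0.024% lower. The largest of the 9 was 0.11 ± 0.21 for ALDH3A1 and the lowest -0.07 ± 0.17 and -0.07 ± 0.15 for GCLM and AKR1B10, each with an adjusted p of 0.9996 and none with an unadjusted p under 0.05 (edgeR's quasi-likelihood test of the interaction of assay and group). With each lysate's own log2 ratio of Ribo-seq to RNA-seq as the value (limma), 0 of 9 were called as well.

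The average conceals wide differences between targets. For each target, the log2 ratio of its CPM to the mean of the controls with the same kind of title was taken, 75 values per gene and assay. These are not always the controls of its set. Unnumbered targets of the third run were set against second-run controls, and numbered targets against controls of several sets. ALDH3A1 was above control in 65 of 75 targets in RNA-seq and 67 in Ribo-seq, with medians of 0.75 and 0.81. GCLM was below control in 63 and 66 of 75, with medians of -0.29 and -0.32. ALDH1A1 was above control in 60 and 65. Against controls of the same set these counts were 64 and 67 for ALDH3A1, 62 and 65 for GCLM and 65 and 68 for ALDH1A1. For NQO1 and ABCC2 the RNA-seq ratios were divided evenly, 38 above and 37 below, and for AKR1C1, AKR1B10, TXNRD1 and SLC7A11 they were 33, 32, 24 and 46 above of 75.

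ALDH3A1 had the widest spread among the 9 genes in RNA-seq, with an SD over targets of 0.50, larger than that of 91.3% of the genes tested. TXNRD1 and SLC7A11 followed with 0.46 and 0.47, larger than 88.0% and 88.5% of genes. In Ribo-seq the SDs of ALDH3A1, TXNRD1 and SLC7A11 were 0.49, 0.46 and 0.47, larger than 63.1%, 58.1% and 60.6% of genes. NQO1 was the steadiest, with an SD of 0.19 in RNA-seq and 0.16 in Ribo-seq, larger than only 4.23% and 0.4221% of genes. In translation efficiency the SD of the 9 genes was 0.13 to 0.27, against a median of 0.32 over genes. The 9 genes are abundant, and the SD of weakly expressed genes also holds counting error.

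A ratio of at least 2-fold above control was reached in 18 of 675 gene and target pairs in RNA-seq, all of them ALDH3A1, and a ratio of at least 2-fold below in 18 pairs (2.667% each). They compare with 1.61% above and 2.64% below over all genes and targets. In Ribo-seq the counts were 21 above (3.111%) and 19 below (2.815%), against 4.11% and 4.97% over all genes. Of the 21, 19 were ALDH3A1. In RNA-seq the low pairs were 7 for TXNRD1, 6 for GCLM, 2 each for AKR1C1 and SLC7A11 and 1 for AKR1B10. No gene of the 9 passed 2-fold in translation efficiency in either direction, where 1.76% and 1.99% of all ratios did.

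**Figure D2:**
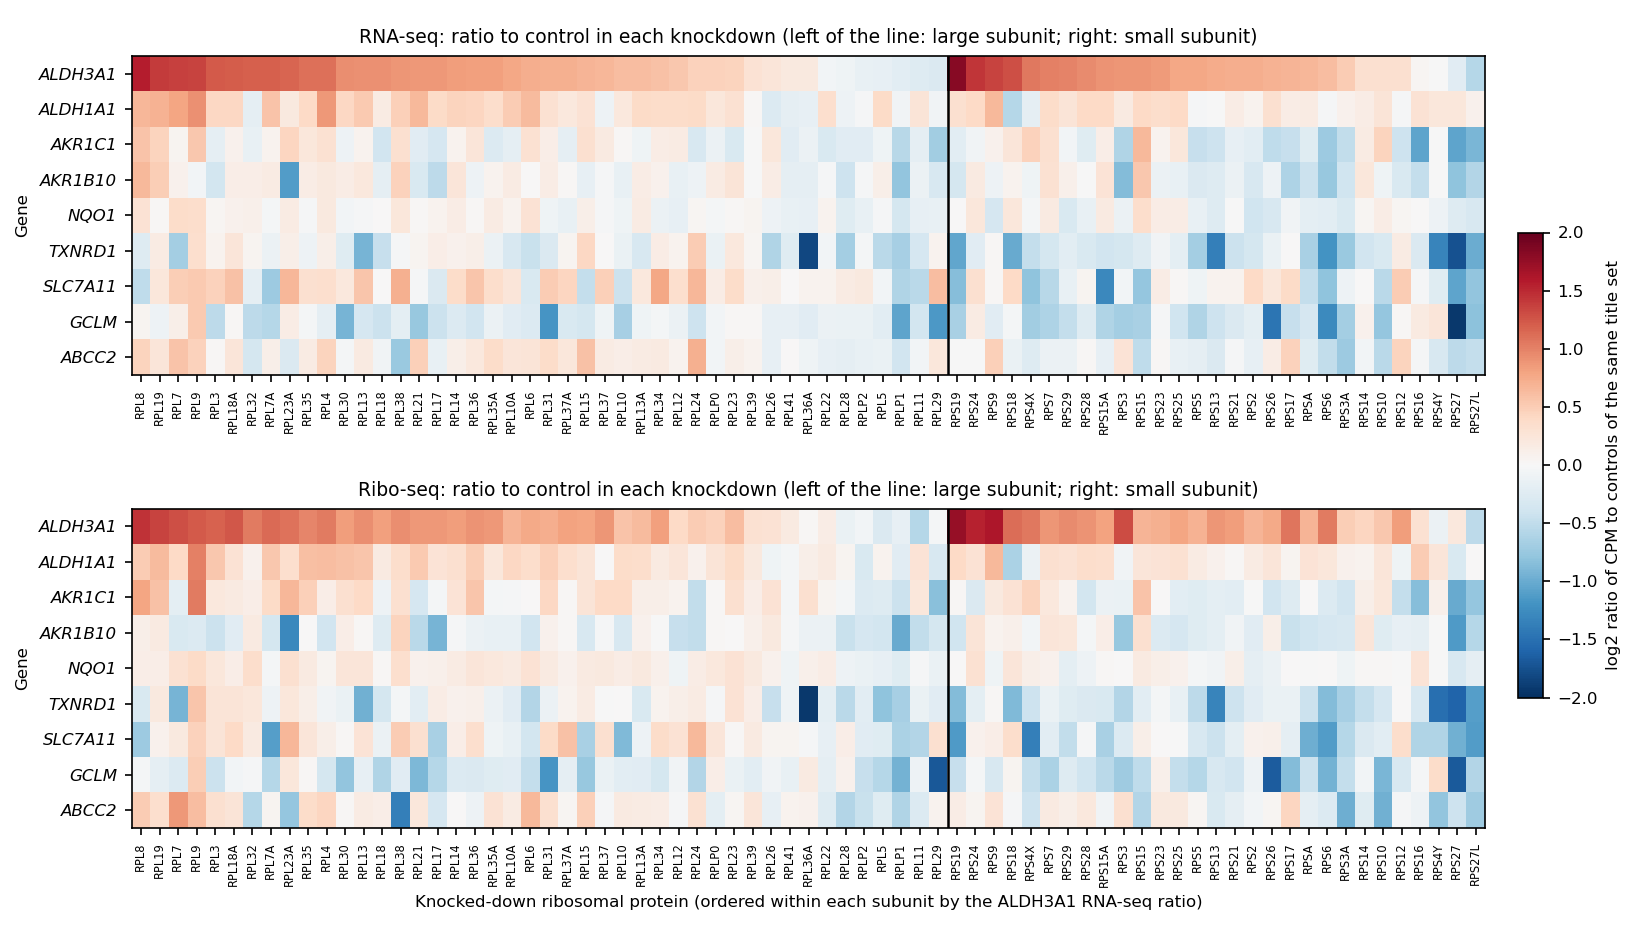
Log2 ratio of CPM to control (colour, red higher and blue lower) for the 9 genes in the knockdown of each of 73 of the 75 ribosomal proteins, RNA-seq above and Ribo-seq below, large-subunit targets left of the line and small-subunit targets right of it. The ALDH3A1 row is red for most targets and turns blue at RPL11 and RPS27L among others, the GCLM row is mostly blue, and the NQO1 row is pale throughout.

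The highest ALDH3A1 ratio in RNA-seq was that of RPS19, whose knockdown library held 1455 CPM against 382.9 to 468.2 CPM in the 5 controls with unnumbered titles (log2 ratio 1.82). RPL8 was also near the top with 1231 CPM (1.57). The lowest were RPS27L with 278.7 CPM (-0.57), RPL29 with 568.1 and 576.0 CPM (-0.28) and RPL11 with 346.0 CPM (-0.25). RPS27L and RPL11 libraries thus lay below every control of their set. In Ribo-seq the lowest were RPL11 (-0.57), RPS27L (-0.53) and RPL5 (-0.29), and RPS19 (1.75) and RPS9 (1.61) were near the top. RPL5 and RPL11 join the 5S ribosomal RNA in a particle that can bind MDM2, and RPS27L is a paralogue of RPS27.

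For ALDH1A1 the highest RNA-seq libraries were those of RPL9 with 4939 CPM (0.91), RPL4 with 4799 CPM (0.87) and RPL7 with 4554 CPM (0.79), where the 5 unnumbered controls held 2178 to 3392 CPM. The lowest were RPS18 with 1767 CPM (-0.58), RPL26 with 2179 CPM (-0.27) and RPS4X with 2321 CPM (-0.18, or -0.05 within its set). Only RPS18 was below all of these controls. In Ribo-seq the ends were RPL9, RPS9 and RPL19 (1.00, 0.65 and 0.63) and RPS18, RPL29 and RPLP2 (-0.63, -0.33 and -0.31). Against controls of their own set the RPL29 value was 0.10 and the RPS9 value 1.08.

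AKR1C1 was lowest in RNA-seq after knockdown of RPS16, with 68.5 and 73.1 CPM (-1.06), RPS27 with 79.3 CPM (-1.05) and RPS27L with 87.2 CPM (-0.92). The 11 controls held 110.4 to 216.6 CPM, above these 4 libraries. RPS15 was among its highest ratios (0.65), which shrank to 0.16 against the controls of titles 13 to 20. AKR1B10 was lowest with RPL23A at 825.2 CPM (-1.12), RPS3 at 1085 and 1099 CPM (-0.87) and RPS27 at 1022 CPM (-0.81), all below the lowest control at 1658 CPM. The highest AKR1B10 ratios were those of RPL8 at 2817 CPM (0.65), RPS15 at 2778 and 3012 CPM (0.54, or 0.08 within its set) and RPL19 at 2516 CPM (0.49). NQO1 stayed between -0.40 and 0.39, with RPS2, RPLP1 and RPS9 lowest (-0.40, -0.35 and -0.34) and RPL7 and RPS15 near the top (0.37 and 0.35). Within sets the RPS15 value of NQO1 was -0.01, and the RPS2 and RPS9 values -0.11 and -0.18.

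TXNRD1 was lowest with RPL36A at 455.5 CPM (-1.82, or -1.58 within its set), RPS27 at 480.2 CPM (-1.74) and RPS13 at 623.7 CPM (-1.36, or -1.13 within its set), where the unnumbered controls held 1492 to 1695 CPM. RPL24, RPL15 and RPL9 were its highest targets (0.51, 0.41 and 0.34). For SLC7A11 the lowest ratio was that of RPS15A with 98.4 and 135.6 CPM (-1.30), but the controls of its set held 77.2 and 185.1 CPM and the ratio to them was -0.05. Against the first of these controls alone, at 185.1 CPM, it was -0.68. RPS27 at 234.3 CPM (-1.05) and RPS19 at 269.6 CPM (-0.85) came next, and both were below the lowest unnumbered control at 311.4 CPM. Its highest values were RPL34 at 836.8 CPM (0.78), RPL38 at 793.6 CPM (0.70) and RPL23A at 774.5 CPM (0.67). GCLM was lowest with RPS27 at 55.7 CPM (-1.93), RPS26 at 43.9 and 49.6 CPM (-1.46) and RPS6 at 87.5 CPM (-1.28), and highest with RPL9 at 307.8 CPM (0.53), RPS4Y at 253.0 CPM (0.25, or 0.39 within its set) and RPS16 at 140.9 and 151.5 CPM (0.17, or -0.47 within sets). ABCC2 ran from RPL38 at 252.3 CPM (-0.75), RPS3A at 256.9 CPM (-0.72) and RPS10 (-0.54, or -0.31 within its set) to RPL7 at 625.5 CPM (0.56), RPL15 (0.58) and RPL24 at 550.1 and 558.1 CPM (0.71).

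The RPS27 library recurred at the low end. Against control it had log2 ratios of -0.22 for ALDH3A1, 0.23 for ALDH1A1, -1.05 for AKR1C1, -0.81 for AKR1B10, -0.25 for NQO1, -1.74 for TXNRD1, -1.05 for SLC7A11, -1.93 for GCLM and -0.52 for ABCC2. Its mean over the 33 other NRF2 targets was -0.57. The RPL9 library recurred at the high end, with 1.35, 0.91, 0.55, -0.06, 0.35, 0.34, 0.52, 0.53 and 0.46 in the same order of genes. Each is 1 library per assay with no replicate. In Ribo-seq RPS27 was again among the lowest 3 targets for AKR1C1 (-1.002), AKR1B10 (-1.13), NQO1 (-0.32), TXNRD1 (-1.60) and GCLM (-1.68), and RPL9 among the highest 3 for ALDH1A1 (1.00), AKR1C1 (1.04), NQO1 (0.38), TXNRD1 (0.55), GCLM (0.49) and ABCC2 (0.62).

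The other Ribo-seq extremes were close to those of RNA-seq for some genes and not for others. TXNRD1 was lowest with RPL36A (-1.93) and RPS4Y (-1.51) beside RPS27, and RPL23 and RPL3 followed RPL9 at the top (0.28 and 0.25, the RPL3 value being 0.39 within its set). ABCC2 was lowest with RPL38 at 122.3 CPM (-1.36), RPS3A at 160.6 CPM (-0.97) and RPS10 at 134.5 and 141.9 CPM (-0.97), and highest with RPL7 at 573.7 CPM (0.86) and RPL6 at 494.3 CPM (0.65). SLC7A11 was lowest with RPS4X (-1.36), RPS19 (-1.13) and RPS6 (-1.12) and highest with RPL23A (0.67), RPL24 (0.65) and RPL37A (0.58). GCLM was lowest with RPL29 (-1.70) and RPS26 (-1.66) beside RPS27, and RPS4Y and RPL23A followed RPL9 (0.37 and 0.23). AKR1C1 was low with RPS16 and RPL29 (-0.85 and -0.84) and high with RPL8 and RPL23A (0.78 and 0.67). Within sets the RPS16 value was -1.45 and the RPL29 value -0.10. AKR1B10 was low with RPL23A and RPLP1 (-1.30 and -1.01) and high with RPL38 and RPS15 (0.44 and 0.33, the RPS15 value being 0.03 within its set). NQO1 was low with RPLP1 and RPS29 (-0.24 and -0.20) and high with RPL32 and RPL38 (0.36 and 0.34).

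Loss of a large-subunit protein left TXNRD1, SLC7A11 and ABCC2 higher than loss of a small-subunit protein in both assays. In RNA-seq 3 of 9 genes were called higher and 0 lower, against 15.2% and 16.4% of all genes. In Ribo-seq 4 were called higher, with NQO1 added, and 0 lower, against 10.9% and 11.2%. The comparison held 48 large-subunit and 43 small-subunit knockdown libraries in a fit that also held the 11 controls.

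TXNRD1 held 455.5 to 2036 CPM (median 1491) in RNA-seq of large-subunit knockdowns and 480.2 to 1525 CPM (median 1020) in small-subunit knockdowns, and the controls had a median of 1382 CPM. The ranges overlap, and the medians of the small-subunit group and of the controls differ more than those of the large-subunit group and the controls. The log2 difference of large over small was 0.45 ± 0.08 in RNA-seq and 0.36 ± 0.08 in Ribo-seq, with adjusted p of 2.14e-06 and 0.00037 (edgeR's quasi-likelihood test). Within sets that hold both groups it was 0.32 in titles 1 to 11, 0.51 in the second run and 0.26 in the third in RNA-seq, and 0.14, 0.50 and 0.25 in Ribo-seq. Titles 13 to 20 hold small-subunit targets only. With numbered titles alone the Ribo-seq difference was 0.18 ± 0.08 and not called (adjusted p of 0.13, edgeR).

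SLC7A11 held 199.0 to 836.8 CPM (median 541.6) in large-subunit and 98.4 to 644.1 CPM (median 302.5) in small-subunit knockdowns in RNA-seq. In Ribo-seq it was 197.6 to 695.7 CPM (median 455.6) and 170.0 to 560.6 CPM (median 297.7). Its log2 differences were 0.39 ± 0.11 and 0.41 ± 0.09, with adjusted p of 0.0023 and 0.00023 (edgeR's quasi-likelihood test). The RNA-seq difference was -0.02 within titles 1 to 11, 0.40 in the second run and 0.49 in the third, so it did not hold in the first of these sets. The Ribo-seq differences within these sets were 0.13, 0.40 and 0.67. With numbered titles alone neither was called (adjusted p of 0.20 and 0.067, edgeR), nor with the second run alone (0.072 and 0.13).

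ABCC2 had a median of 461.1 CPM (252.3 to 625.5) in large-subunit and 374.5 CPM (222.4 to 477.3) in small-subunit knockdowns in RNA-seq, and 327.9 and 279.6 CPM in Ribo-seq. The log2 difference was 0.31 ± 0.06 in RNA-seq and 0.22 ± 0.08 in Ribo-seq, with adjusted p of 2.56e-05 and 0.030 (edgeR). Within titles 1 to 11, the second and the third run it was 0.14, 0.21 and 0.38 in RNA-seq and 0.06, 0.07 and 0.51 in Ribo-seq. The Ribo-seq call was lost with 4 sets as the term (0.18 ± 0.08, adjusted p of 0.10, edgeR), and in the second run alone neither assay called it (0.070 and 0.70). NQO1 in Ribo-seq had medians of 4057 and 3373 CPM and a log2 difference of 0.10 ± 0.04 with an adjusted p of 0.027 (edgeR), positive in all 3 sets (0.11, 0.09 and 0.24). The NQO1 call was lost with numbered titles alone and in the second run alone (adjusted p of 0.82 and 0.40, edgeR), and it was not made in RNA-seq (0.06 ± 0.05), except with 4 sets as the term (0.09, adjusted p of 0.038, edgeR).

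The aldehyde dehydrogenases and GCLM were not called between subunits, with log2 differences of -0.13 ± 0.11 for ALDH3A1, 0.12 ± 0.06 for ALDH1A1 and 0.07 ± 0.09 for GCLM in RNA-seq and -0.20 ± 0.10, 0.09 ± 0.06 and -0.004 ± 0.087 in Ribo-seq. Without the title term all 3 were called in both assays, at -0.46, 0.15 and 0.42 in RNA-seq and -0.47, 0.24 and 0.31 in Ribo-seq. With unnumbered titles alone ALDH1A1 was called in RNA-seq (0.19, adjusted p of 0.049, edgeR). AKR1C1 and AKR1B10 were not called either (0.04 ± 0.10 and 0.08 ± 0.08), but with 4 sets as the term both were, at 0.22 ± 0.08 and 0.19 ± 0.06 (adjusted p of 0.021 and 0.014, edgeR), and AKR1B10 also with unnumbered titles alone (0.22, adjusted p of 0.035, edgeR). In Ribo-seq they were 0.14 ± 0.09 and -0.12 ± 0.07, not called. There AKR1C1 was called with 4 sets as the term (0.30), in the second run alone (0.49), with unnumbered titles alone (0.34) and without the title term (0.41), with adjusted p of 0.0088, 0.017, 0.0045 and 0.00051 (edgeR). AKR1B10 was called lower in Ribo-seq with numbered titles alone (-0.41, adjusted p of 0.015, edgeR), opposite in direction to its RNA-seq values. No translation efficiency of the 9 was called, where 1.06% of genes were called higher and 2.52% lower; AKR1B10 had the lowest value, -0.20 ± 0.11. With each lysate as the block, AKR1B10 (-0.21 ± 0.04, adjusted p of 4.515e-05) and TXNRD1 (-0.10 ± 0.04, adjusted p of 0.045, limma) were called lower.

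**Figure D3:**
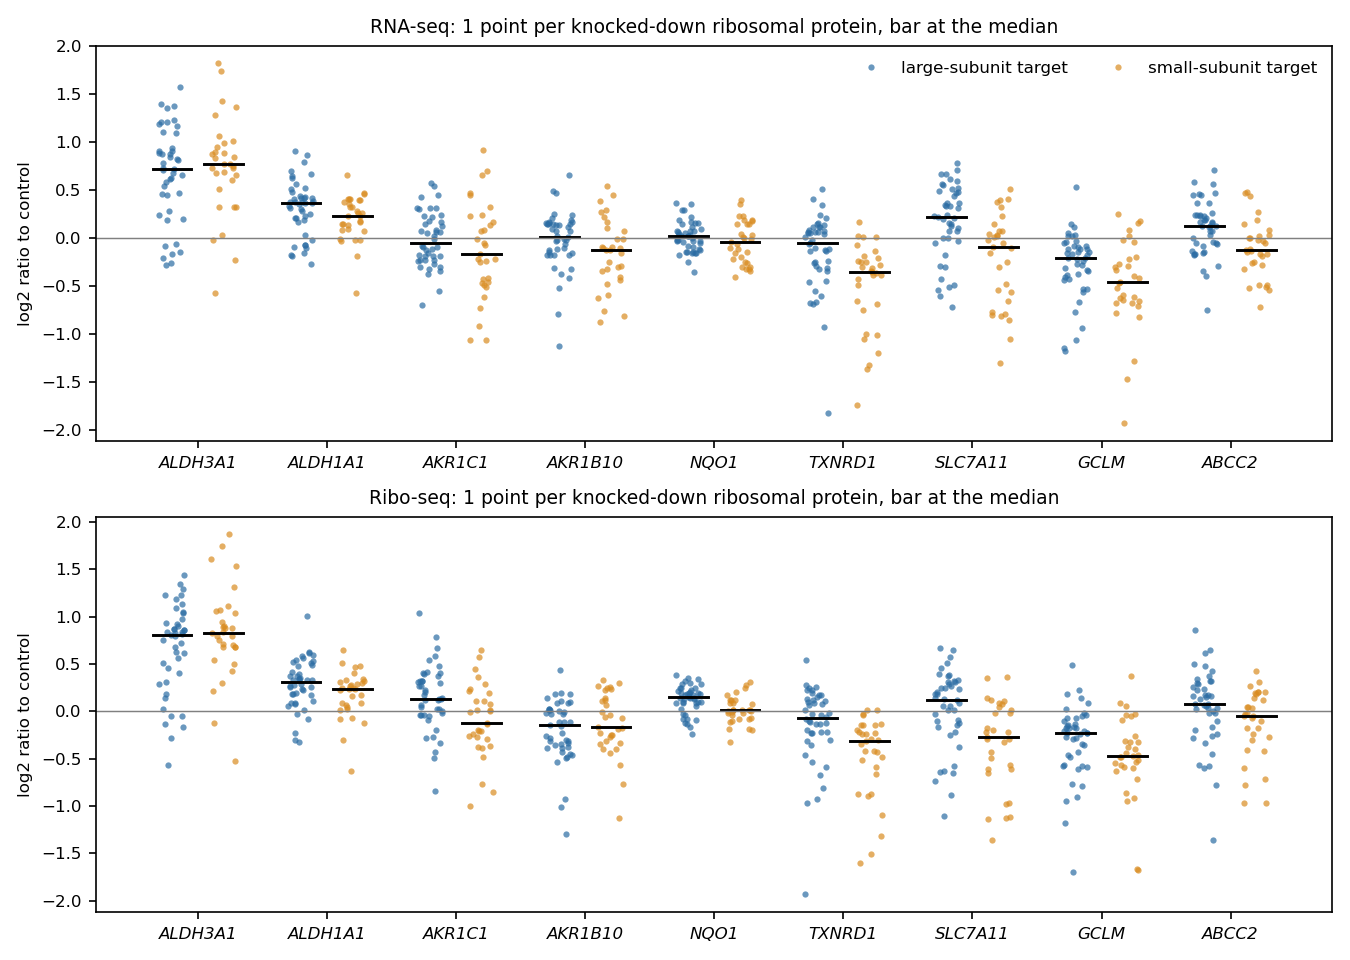
Log2 ratio of CPM to control for the 9 genes, 1 point per target, 44 large-subunit targets left of 31 small-subunit targets, RNA-seq above and Ribo-seq below, with bars at the medians. The large-subunit medians of TXNRD1, SLC7A11 and ABCC2 lie above the small-subunit medians in both assays, and the points of both groups overlap for every gene.

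Replicates exist for 16 targets. Each was tested with its 2 libraries against the 6 numbered controls, which all 16 tests share, so their results are not independent of each other. These controls come from titles 1 to 11, titles 13 to 20 and the third run, so most are of another set than the target. Of 144 gene and target tests, 33 were called higher (22.92%) and 18 lower (12.5%) in RNA-seq, against 10.8% and 12.5% over all genes. In Ribo-seq 29 were called higher (20.14%) and 30 lower (20.83%), against 13.9% and 15.4%. With controls of the target's own set instead, 34 higher and 18 lower were called in RNA-seq, 31 of them the same as before, and 58 and 23 in Ribo-seq, 44 of them the same. Without the second library of control 20, 88 of 144 tests were called in RNA-seq instead of 51. Calls over all genes rose then as well, as given at the end.

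ALDH3A1 was called higher in 7 of 16 targets in RNA-seq and 12 in Ribo-seq, and lower in 0. ALDH1A1 was called higher in 11 and 5 and lower in 0. GCLM was called lower in 6 and 13 and higher in 0. For the remaining genes the counts were smaller or went both ways. ABCC2 was higher in 6 and lower in 2 in RNA-seq and higher in 7 and lower in 2 in Ribo-seq, and AKR1C1 was higher in 3 and lower in 6 in RNA-seq and lower in 2 in Ribo-seq. AKR1B10 was higher in 2 and lower in 3 in RNA-seq and lower in 4 in Ribo-seq, and TXNRD1 higher in 2 in RNA-seq and lower in 4 in Ribo-seq. SLC7A11 was lower in 1 in RNA-seq, and higher in 4 and lower in 5 in Ribo-seq, while NQO1 was higher in 2 and 1. Calls in the same direction in both assays were made for ALDH3A1 in 7 targets, ALDH1A1 in 5, GCLM in 6, ABCC2 in 7, AKR1C1 and AKR1B10 in 2 each and SLC7A11 in 1.

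The counts of several genes depended on the controls. With controls of the same set ALDH3A1 was called higher in 10 targets in RNA-seq and 13 in Ribo-seq and lower in 1 in each, which was RPS10 in RNA-seq (-0.34 ± 0.13, adjusted p of 0.026) and RPL29 in Ribo-seq (-0.32 ± 0.10, adjusted p of 0.027, edgeR). The RPS10 ratio to the first library of control 20 alone was -0.11. ALDH1A1 was then higher in 9 and 14 and GCLM lower in 5 and 10, and AKR1C1 in RNA-seq higher in 3 and lower in 2. In Ribo-seq NQO1 was higher in 8, AKR1C1 higher in 7 and lower in 1, AKR1B10 higher in 3 and lower in 3, TXNRD1 higher in 2 and lower in 2, SLC7A11 higher in 5 and lower in 3 and ABCC2 higher in 6 and lower in 3. Without the second library of control 20, the RNA-seq counts were 12 higher for ALDH3A1, 14 lower for GCLM, 2 higher and 8 lower for TXNRD1, 7 lower for SLC7A11 and 6 higher and 1 lower for NQO1.

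ALDH3A1 was called in both assays with RPS9. Its Ribo-seq libraries held 3720 and 4135 CPM, against 1501 and 1614 CPM in controls of titles 1 to 11, 1684 and 1599 CPM in those of titles 13 to 20 and 813.5 and 833.5 CPM in those of the third run. Both RPS9 libraries were above every control. The log2 fold change was 1.57 ± 0.17 in Ribo-seq and 1.23 ± 0.25 in RNA-seq, with adjusted p of 5.5e-08 and 0.00069 (edgeR's quasi-likelihood test), and 1.35 and 1.32 against the controls of its own set. ALDH1A1 was highest with RPL21 in RNA-seq, at 3542 and 3800 CPM against 1983 to 2963 CPM in the 6 controls (0.67 ± 0.09, adjusted p of 3.6e-06), and with RPS9 in Ribo-seq, at 13372 and 13620 CPM against 6272 to 11730 CPM (0.62 ± 0.15, adjusted p of 0.0015, edgeR).

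GCLM was lowest with RPS26 in RNA-seq and RPL29 in Ribo-seq. RPS26 knockdown libraries held 43.9 and 49.6 CPM in RNA-seq, against 67.2 to 201.1 CPM in the 6 controls, a log2 fold change of -1.56 ± 0.25 with an adjusted p of 6.52e-05 (edgeR). RPL29 libraries held 111.5 and 116.4 CPM in Ribo-seq, against 285.7 to 545.1 CPM, a log2 fold change of -1.75 ± 0.21 with an adjusted p of 5.22e-07. Neither pair of libraries overlaps with the controls. Against controls of their own set the values were -1.39 and -1.33, both still called.

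AKR1C1 was lowest with RPS16 in RNA-seq, at 68.5 and 73.1 CPM against 110.4 to 216.6 CPM (-1.11 ± 0.20, adjusted p of 0.00018, edgeR), and with RPL29 in Ribo-seq, at 117.3 and 140.2 CPM against 131.0 to 363.6 CPM (-0.94 ± 0.26, adjusted p of 0.016). The RPS16 value was -1.09 within its sets and still called, and the RPL29 value was -0.09 and was not. AKR1C1 was called higher with RPS15 in RNA-seq, at 230.7 and 235.1 CPM (0.63 ± 0.18, adjusted p of 0.0095), and not within its set (0.21). Without the second library of control 20, against the remaining numbered controls, which are mostly of other sets, it was 0.76 and called. Its ratio to the first library of control 20 alone was 0.21. AKR1B10 was lowest with RPS3 in both assays, at 1085 and 1099 CPM against 1658 to 2862 CPM in RNA-seq and at 1363 and 1389 CPM against 1719 to 2904 CPM in Ribo-seq. Its log2 fold changes were -0.92 ± 0.17 and -0.79 ± 0.14, with adjusted p of 0.0002 and 5.43e-05 (edgeR), and -0.63 and -0.36 within its set. Its RPS15 value in RNA-seq, 0.52 ± 0.15, was 0.13 against controls of titles 13 to 20 and was not called there. Without the second library of control 20, again against controls mostly of other sets, it was 0.66 and called. Its ratio to the first library of control 20 alone was 0.15.

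NQO1 was called higher with RPS15 in RNA-seq (0.35 ± 0.13, adjusted p of 0.049, edgeR) and with RPS16 in Ribo-seq (0.26 ± 0.10, adjusted p of 0.041). Against controls of the same sets these were 0.03 and 0.05 and not called. Without the second library of control 20, against the remaining numbered controls, mostly of other sets, the RPS15 value was 0.48 and called. The RPS15 ratio to the first library of control 20 alone was 0.13. TXNRD1 was higher with RPL24 in RNA-seq, at 1652 and 1682 CPM against 692.9 to 1382 CPM (0.48 ± 0.14, adjusted p of 0.012), and lower with RPS3 in Ribo-seq, at 1055 and 1376 CPM against 1547 to 2226 CPM (-0.59 ± 0.12, adjusted p of 0.00018, edgeR). Both were called within their set as well, at 0.42 and -0.37. SLC7A11 was called lower with RPS15A in RNA-seq, at 98.4 and 135.6 CPM against 77.2 to 536.1 CPM, where the controls overlap it, and the call was lost within its set (-0.11). Against the other 5 controls, with the second library of control 20 (77.2 CPM) left out, it was -1.71 and called. In Ribo-seq it was higher with RPL24, at 508.7 and 527.5 CPM (0.64 ± 0.10, adjusted p of 1.55e-05), and lower with RPS15A, at 206.5 and 213.8 CPM (-0.69 ± 0.11, adjusted p of 3.99e-05), against 282.8 to 394.9 CPM in the controls. Within sets these were 0.71 and -0.48 and both still called.

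ABCC2 was higher with RPL24 in RNA-seq, at 550.1 and 558.1 CPM against 246.5 to 377.2 CPM (0.69 ± 0.10, adjusted p of 1.54e-05, edgeR), and with RPL15 in Ribo-seq, at 372.2 and 386.0 CPM against 259.4 to 285.6 CPM (0.50 ± 0.07, adjusted p of 3.11e-06). It was lower with RPS10 in both assays, at 222.4 and 244.6 CPM in RNA-seq (-0.54 ± 0.11, adjusted p of 0.00099) and 134.5 and 141.9 CPM in Ribo-seq (-0.98 ± 0.08, adjusted p of 3.71e-10). The Ribo-seq libraries of RPL15 and of RPS10 lay outside the range of the 6 controls, on opposite sides. Within sets the 4 values were 0.63, 0.56, -0.30 and -0.997, all called. Without the second library of control 20 the RPL24 and RPS10 values in RNA-seq were 0.62 and -0.62, and that of TXNRD1 with RPL24 was 0.37, all called.

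**Figure D4:**
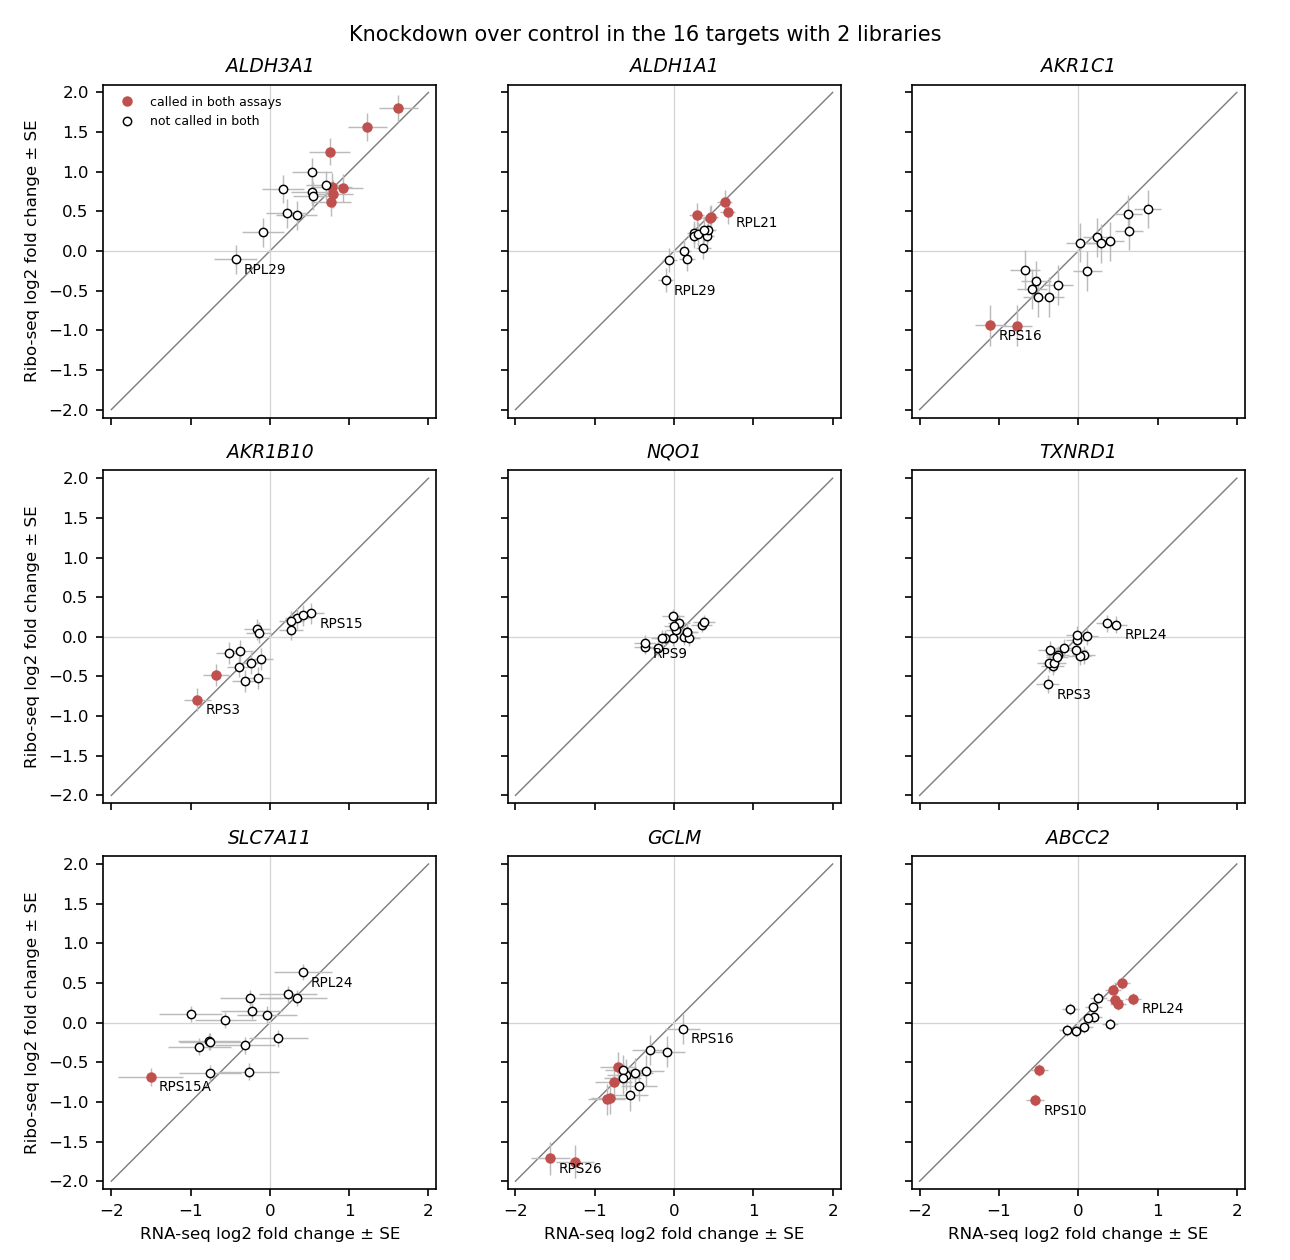
RNA-seq (horizontal) and Ribo-seq (vertical) log2 fold change of knockdown over the 6 numbered controls, with SE bars, for the 9 genes in each of the 16 targets with 2 libraries; filled points were called in both assays and the diagonal marks equal change. ALDH3A1 points lie mostly in the upper right, GCLM points in the lower left with RPS26 and RPL29 lowest, and ABCC2 points on both sides of 0.

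Translation efficiency was called in 1 of 144 tests, ABCC2 lower with RPS12 (-0.41 ± 0.13, adjusted p of 0.031, edgeR), against 1.04% of all tests called higher and 0.997% lower. In RNA-seq ABCC2 rose with RPS12 (0.40 ± 0.10, adjusted p of 0.0065). With controls of the same set the RPS12 call was lost (-0.28, adjusted p of 0.26) and 6 others were made: ABCC2 lower with RPS10 (-0.68), ALDH3A1 higher with RPS10 (0.55), AKR1C1 higher with RPS3 (0.79), AKR1B10 higher with RPS26 (0.43), and NQO1 higher with RPS26 and RPS9 (0.35 and 0.39). With each lysate as the block 2 of 144 were called, ABCC2 lower and ALDH3A1 higher with RPS12. Without the second library of control 20 it was 4, ABCC2 with RPS12 (lower) and RPS7 (higher) and SLC7A11 with RPS15 and RPS15A (both higher). The first and second RPS7 libraries held 369.5 and 263.8 CPM of ABCC2 in RNA-seq, and 313.8 and 302.7 CPM in Ribo-seq. These alternative calls were named after their values were seen. Calls over all genes also rose under these alternatives, as given at the end.

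A test of equal means among the 16 targets asks whether a gene's level differs among them. It had no term for sets, and the targets lie in different sets, so differences between sets enter it. In RNA-seq all 9 genes differed among targets, where 73.6% of genes did, and in Ribo-seq 8 of 9, where 78.8% did. NQO1 was the exception in Ribo-seq (adjusted p of 0.11, edgeR's quasi-likelihood test), and when sets were matched it was called too (adjusted p of 0.00015). ABCC2 and AKR1C1 had the largest F statistics in RNA-seq, 14.4 and 13.5, above those of 94.2% and 93.3% of genes. ABCC2 and SLC7A11 had the largest in Ribo-seq, 29.1 and 18.4, above 97.98% and 94.5% of genes. The order differed when sets were matched. AKR1C1 and ALDH3A1 then had the smallest adjusted p in RNA-seq (1.47e-11 and 4.78e-11), against 8.67e-07 for ABCC2 (edgeR). ALDH3A1 had the smallest in Ribo-seq (5.89e-16, edgeR). In translation efficiency 1 of 9 genes was called, ABCC2 (adjusted p of 0.025), and 8.77% of all genes were. Matched for sets, 3 of 9 were called (ALDH3A1, AKR1B10 and ABCC2), and with each lysate as the block 0 were. Calls over all genes also rose with matched sets, as given at the end.

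Over the 75 targets, the RNA-seq ratios of the 9 genes varied together in part. Of 36 pairs, 27 had a called Pearson correlation (permutation test with 100000 resamples, two-sided, Benjamini-Hochberg adjusted over the 36), all 27 positive, with a median r of 0.34 over all pairs. The highest were AKR1C1 with AKR1B10 (r = 0.64, rho = 0.63) and AKR1C1 with NQO1 (r = 0.62, rho = 0.58), both with an adjusted p of 9e-05. The points share controls and library sets, and the kind of title mattered. Within the 16 numbered targets the median r was 0.06. There SLC7A11 correlated negatively with AKR1C1 (r = -0.68) and NQO1 (r = -0.64), whereas in the 59 unnumbered targets these were 0.45 and 0.36. AKR1C1 with AKR1B10 was 0.83 and 0.56, and AKR1C1 with NQO1 was 0.69 and 0.60, in numbered and unnumbered targets. In Ribo-seq 18 of 36 pairs were called, all positive, with a median r of 0.28.

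The ratios of the 9 genes were then set against other responses. The members of 3 lists were averaged per target: 12 p53 target genes such as CDKN1A and MDM2, 12 ATF4 target genes such as ASNS and CHAC1, and 33 other NRF2 target genes. ALDH3A1 followed the p53 list most closely among the 9 genes, with r = 0.75 and rho = 0.72 over 75 targets (adjusted p of 5.4e-05 over 27 relations, permutation test). The value was 0.58 in numbered targets, 0.80 in unnumbered targets, 0.81 in the second run and 0.72 without the 2 targets farthest from the median. The lowest p53 list means were those of RPS27L (-0.04), RPL11 (-0.03), RPL22 (0.09) and RPL5 (0.10), and RPS27L, RPL11 and RPL5 were also among the lowest for ALDH3A1 in RNA-seq or Ribo-seq. Its correlation with the other NRF2 targets was 0.48.

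AKR1C1, AKR1B10 and NQO1 followed the other NRF2 targets, with r of 0.86, 0.71 and 0.71 and rho of 0.84, 0.74 and 0.71 (adjusted p of 5.4e-05 each, permutation test, raw p of 1e-05 being the smallest that 100000 resamples give). The list holds AKR1C2 and AKR1C3, which share sequence with AKR1C1. The values were 0.84, 0.64 and 0.70 in unnumbered targets and 0.87, 0.66 and 0.70 without the 2 most distant targets. In numbered targets they were 0.92, 0.88 and 0.74, where set and target cannot be told apart. There every target of titles 13 to 20 had a positive list mean and every target of titles 1 to 11 a negative one. The controls of these sets also differed, with AKR1C1 at 200.7 and 216.6 CPM against 111.0 and 110.4 CPM in RNA-seq. GCLM had r = 0.51 over all targets, with 0.14 in numbered and 0.68 in unnumbered targets. For SLC7A11 the pooled r of 0.11 joins values of opposite sign, -0.79 in numbered and 0.52 in unnumbered targets, and ABCC2 likewise had -0.55 and 0.58. SLC7A11 was at 185.1 and 77.2 CPM in RNA-seq controls of titles 13 to 20. In those of titles 1 to 11 it was at 346.2 and 373.6 CPM. The part of this difference between sets in the negative values was not tested. TXNRD1 had a pooled r of 0.35 (adjusted p of 0.0062, permutation test), which also joins -0.35 in numbered and 0.51 in unnumbered targets. In Ribo-seq the SLC7A11 value was 0.37 (adjusted p of 0.0028, permutation test), with -0.42 in numbered and 0.53 in unnumbered targets. With the ATF4 list only ABCC2 had an adjusted p under 0.05 for r (r = 0.27, adjusted p of 0.039, permutation test), while its rho of 0.23 had 0.082. SLC7A11, itself an ATF4 target, had r = 0.12 with that list.

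**Figure D5:**
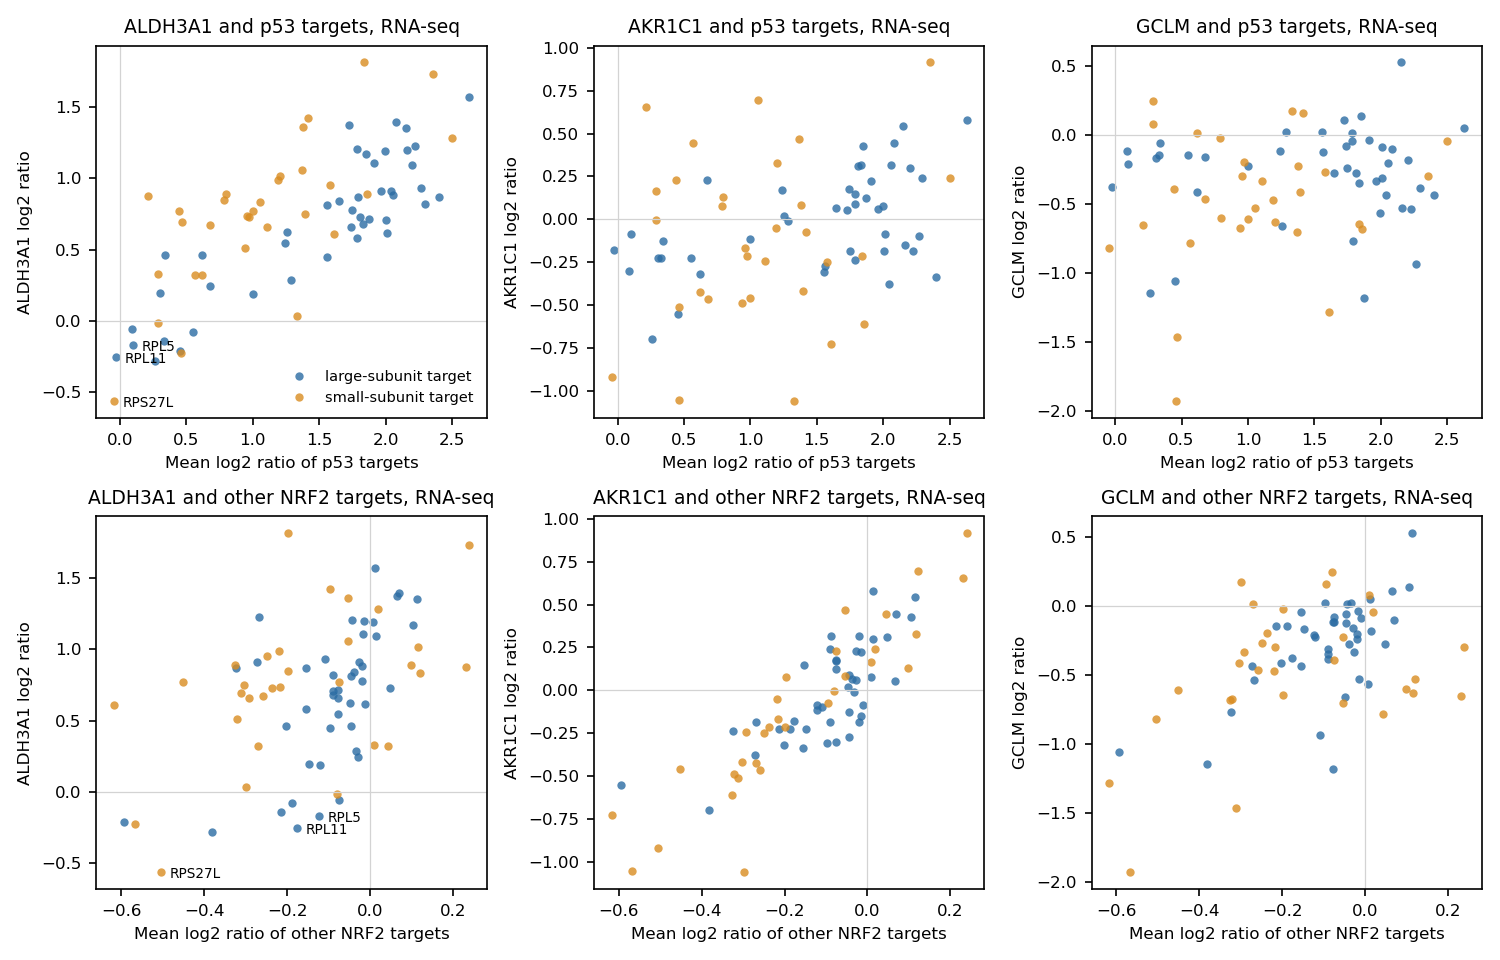
RNA-seq log2 ratio to control of ALDH3A1, AKR1C1 and GCLM (vertical) against the mean log2 ratio of 12 p53 target genes (upper row) and of 33 other NRF2 target genes (lower row), 1 point per target, coloured by subunit. ALDH3A1 climbs with the p53 mean (r = 0.75) and RPS27L, RPL11 and RPL5 sit at its lower left, while AKR1C1 climbs with the mean of the other NRF2 targets (r = 0.86).

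The genes most like each of the 9 were sought among 10113 genes with a mean of at least 10 CPM, by Pearson's r of RNA-seq log2 ratios over 75 targets, as a description with no test. For ALDH3A1 they were CYFIP2 (0.79), ACTA2 (0.79) and FDXR (0.78), of which FDXR is on the p53 list. AKR1C1 was nearest to AKR1C2 (0.92), AKR1C3 (0.84) and PTGR1 (0.74), and AKR1B10 to its pseudogene AKR1B10P1 (0.87), AKR1B15 (0.78) and PTGR1 (0.66). Whether reads shared between copies enter these values of AKR1C2, AKR1C3, AKR1B10P1 and AKR1B15 was not tested. NQO1 was nearest to PRDX1 (0.74), a peroxiredoxin, TXN (0.72), thioredoxin, and ATP5PD (0.70). GCLM was nearest to OSGIN1 (0.58), GCLC (0.54), the catalytic subunit of the same ligase, and PTGR1 (0.52). The other 4 had neighbours outside the NRF2 lists: CHMP2A, ENO1 and DPP3 for ALDH1A1 (0.62, 0.62 and 0.61), LRP12, ENC1 and PTGS2 for TXNRD1 (0.63, 0.63 and 0.62), EIF2A, ZBTB37 and RICTOR for SLC7A11 (0.69, 0.67 and 0.64), and LAMC1, USP9X and PLK2 for ABCC2 (0.71, 0.69 and 0.68).

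Among the regulators of the pathway, NFE2L2 and KEAP1 were lower in both assays. Averaged over knockdowns, NFE2L2 fell by 0.27 ± 0.09 on the log2 scale in RNA-seq and by 0.26 ± 0.08 in Ribo-seq (adjusted p of 0.017 and 0.0058, edgeR's quasi-likelihood test). KEAP1 fell by 0.29 ± 0.08 and 0.28 ± 0.09 (0.0038 and 0.016). MAFG, a small MAF partner of NRF2, fell by 0.48 ± 0.08 in RNA-seq (4.77e-07) and was not called in Ribo-seq (-0.19 ± 0.13). BACH1, a repressor that competes for the same element, had -0.18 ± 0.12 and -0.19 ± 0.16, and SQSTM1, the autophagy receptor that binds KEAP1, -0.15 ± 0.09 and -0.04 ± 0.10, none of them called. Of 9 regulators, 0 were called higher and 3 lower in RNA-seq and 1 (MAFK, 0.30 ± 0.12) higher and 2 lower in Ribo-seq, against 13.4% higher and 17.2% lower of all genes in RNA-seq and 13.2% and 13.5% in Ribo-seq. Between subunits SQSTM1 was higher in large- than in small-subunit knockdowns in both assays (0.34 ± 0.06 and 0.33 ± 0.06, adjusted p of 6.48e-06 and 5.26e-05, edgeR), as was MAFF (0.51 ± 0.09 and 0.44 ± 0.13), and KEAP1 was lower in Ribo-seq (-0.22 ± 0.06). MAFF and MAFK, further small MAF proteins, were named after their values were seen.

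Among the 33 other NRF2 targets, 2 were called higher and 8 lower over all knockdowns in each assay, where 13.4% and 17.2% of all genes were in RNA-seq and 13.2% and 13.5% in Ribo-seq. They had median log2 fold changes of -0.08 in RNA-seq and -0.10 in Ribo-seq. The genes called higher in RNA-seq were ME1, the cytosolic malic enzyme that makes NADPH (0.66 ± 0.11, adjusted p of 1.6e-06, edgeR), and PIR (0.23 ± 0.09, adjusted p of 0.036). The 5 with the lowest called values were CBR3, a carbonyl reductase (-0.59 ± 0.11), CYP4F11, a cytochrome P450 (-0.59 ± 0.17), OSGIN1 (-0.55 ± 0.12), SRXN1, which repairs oxidised peroxiredoxins (-0.50 ± 0.11), and GSR, glutathione reductase (-0.33 ± 0.11). In Ribo-seq ME1 (0.54 ± 0.09) and these 5 (-0.48, -0.45, -0.32, -0.46 and -0.46 in that order) were called again, and PIR was not. By role, RNA-seq calls were 3 lower of 10 detoxification enzymes, 2 lower of 5 glutathione genes, 1 lower of 3 thioredoxin genes and 1 higher of 6 NADPH genes. Heme and iron genes had 0 of 3, exporters 0 of 2, and the 4 genes of other roles 1 higher and 2 lower. Of all genes 17.2% were called lower.

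All 12 p53 targets were called higher in both assays, with medians of 1.37 and 1.70. Of 12 ATF4 targets 1 was called higher and 7 lower in RNA-seq, and 3 higher and 7 lower in Ribo-seq. Of all genes 13.4% were called higher and 17.2% lower in RNA-seq, and 13.2% and 13.5% in Ribo-seq. Between subunits, 3 of the 33 other NRF2 targets were called higher and 0 lower in large-subunit knockdowns in RNA-seq, and 5 higher and 3 lower in Ribo-seq. Of all genes 15.2% were called higher and 16.4% lower in RNA-seq, and 10.9% and 11.2% in Ribo-seq.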

How the data were processed

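The 9 genes, the lists and the tests were chosen with earlier results of these data known. Ensembl identifiers were matched to symbols, and 9 of 9 genes were found. The authors deposited whole-number read counts for each gene, which per the file headers cover exons in RNA-seq and coding sequences in Ribo-seq. The submitters' processing notes name STAR 2.6.1, cutadapt 1.8.1, bcl2fastq 2.20.0.422 and the GRCh38 build. The counting tool, its strand setting and the annotation were not given in the sources used here. No column was without a sample (0 columns). From the counts, CPM with TMM scaling was computed, and genes with at least 1 CPM in 11 libraries were kept (15526 in RNA-seq, 12793 in Ribo-seq, 12480 in both).

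Groups were compared with edgeR 4.0.16 (quasi-likelihood, R 4.3.3) with a term for numbered or unnumbered titles, translation efficiency being the interaction of assay and group, with Benjamini-Hochberg adjustment over all genes at 0.05. The per-lysate ratios used limma 3.58.1, and DESeq2 1.42.0 was an alternative. The steps were tested on simulated counts. Ratios per target used log2(CPM + 0.5). Named were, for each gene, the replicated targets with its highest and lowest called value, the 3 targets at each end of the ratios and the 3 most similar genes, and besides them 5 regulators and up to 5 called targets in each direction. With the shallowest library at 18.8 M counts in RNA-seq and 7.77 M in Ribo-seq, a count of 0 allows up to 0.160 and 0.386 CPM (3 counts), which covers counting error only. Replicate libraries differed by more than sampling noise in all 71 pairs. RNA-seq and Ribo-seq of 1 lysate are paired by the protocol, and their deviations from the group means had a median correlation of 0.26 over 43 pairs. The alternatives by set of libraries were chosen after seeing the data. Some targets entered every fit and count but are not reported here. RPS9, for ALDH3A1, and RPS15, for AKR1C1 and NQO1, were named after their values were seen.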

Additional observations from a re-analysis of the deposited data

Results flagged for a closer look

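The second library of control 20 was flagged in RNA-seq as distant from the other numbered controls for 2 genes. For each of the 9 genes it was the highest or the lowest of the numbered RNA-seq controls. SLC7A11 was at 77.2 CPM in it and at 185.1 CPM in the next lowest, and GCLM at 67.2 and 122.3 CPM. The 2 flagged genes were TXNRD1, at 692.9 CPM, and ABCC2, at 246.5 CPM in that library. In all, 36 groups of controls (9 genes, 2 assays, numbered and unnumbered) were examined for a distant library, 2 had one, and chance alone flags about 1 in 20 groups. Without that library the RNA-seq log2 fold changes of TXNRD1 and ABCC2 over all knockdowns were -0.23 and 0.07, instead of -0.18 and 0.10, and were not called either way.

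Between subunits the difference itself was called by edgeR for some genes in the fit with the title term. In RNA-seq the log2 difference of large-subunit over small-subunit knockdowns was 0.45 for TXNRD1, 0.39 for SLC7A11 and 0.31 for ABCC2. In Ribo-seq it was 0.36 for TXNRD1, 0.41 for SLC7A11, 0.22 for ABCC2 and 0.10 for NQO1.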

How the results depend on the processing

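Most values of single genes kept their direction and their side of the threshold: of the values under alternatives, 1422 did, 86 lost their call, 18 gained one and 1 changed sign with a call. The last was GCLM between subunits in Ribo-seq, -0.004, which was 0.31 without the title term. The sets of libraries and the second library of control 20 moved more than filter, scaling or tool, and the cause was not tested. Depth did not limit the 9 genes, each with at least 1337 reads in every library.

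For all knockdowns against control, 4744 genes were called in RNA-seq, with 1784 in the second run alone, 1880 with numbered and 2089 with unnumbered titles. In Ribo-seq 3413 were called, with 625 in the second run and 762 with unnumbered titles. Of the 9 genes 3 were called in each assay, and 1 in the second run or with unnumbered titles. In translation efficiency 60 genes were called, with 3 in the second run, 145 without the filter, 29 without the title term, 18 with numbered and 5 with unnumbered titles, and 38 to 60 when 1 control was left out.

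Between subunits, 4912 genes were called in RNA-seq, with 2165 in the second run and 2231 with numbered titles. Of the 9 genes 3 were called, with 6 under the term for 4 sets or without the title term, 5 with unnumbered titles and 1 in the second run. In Ribo-seq 2826 were called, with 465 in the second run, 4777 without the title term and 1439 with unnumbered titles, and 4 of the 9 genes, with 2, 8 and, with numbered titles, 1. In translation efficiency 447 were called, with 739 under the term for 4 sets, 113 in the second run, 828 without the filter, 1017 without the title term, 100 with numbered and 278 with unnumbered titles.

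Over the 16 targets and all genes, 57973 tests were called in RNA-seq, 59926 in Ribo-seq and 4061 in translation efficiency. When 1 control was left out the counts were 55347 to 87692, 58843 to 65246 and 4160 to 11377, and for the 9 genes (51, 59 and 1) they were 45 to 88, 56 to 67 and 1 to 4. The highest RNA-seq and translation efficiency counts were those without the second library of control 20. When 1 library of every target was left out they were 158 to 202, 4294 to 5848 and 1 to 47, and 0, 2 and 0 for the 9 genes. With 1 library per target the spread came from the controls alone, and each lone library is assumed to vary like them. With controls of the same set 8315 were called in translation efficiency, 6 of them in the 9 genes, and without the filter 0 of the 9 genes were. For differences among targets in translation efficiency, 1094 genes were called, with 2805 for matched sets and 1102 to 3729 when 1 control was left out. Of the 9 genes 1 was called, with 3 for matched sets, 0 without the filter and 1 to 2 when 1 control was left out. Translation efficiency ratios past 2-fold numbered 0, with 1 against all 11 controls and 1 without the second library of control 20. The median r between genes was 0.34, and 0.0581 in numbered titles.

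With the lysate as the block, translation efficiency calls were 338 for all knockdowns, 2001 between subunits (2 of the 9 genes), 7383 over the 16 targets (2) and 2039 among targets (0 of the 9 genes). Replicate numbers in the titles did not pair libraries: same-numbered libraries had a median correlation of deviations of -0.05 in RNA-seq and 0.10 in Ribo-seq over 120 pairs. With them as a block 90677 tests were called in RNA-seq and 14620 in translation efficiency (8 in the 9 genes), and 5496 genes differed among targets in translation efficiency.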
